A study of Mus musculus with 2 samples.

Results

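A CpG dyad is a CpG site seen as a pair of cytosines, 1 on each DNA strand, and 252542 dyads of the mouse autosomes were read deeply enough on both strands, in both of the whole genome bisulfite sequencing (WGBS) libraries, to be compared strand by strand. A dyad was taken when its plus-strand cytosine and its minus-strand cytosine, the next base, each had 10 to 50 calls in the wild type (WT) library and in the TCKO library. These are 1.24% of the 20383623 CpG dyads of the 19 autosomes in the reference and 1.95% of the 12959393 that had a call on each strand in both libraries. The DNA came from primary calvarial osteoblasts of 3-day-old C57BL/6 mice, grown for 3 days. WT mice are labelled wild type, and whether they carried floxed Tet alleles is not stated in the sources used here. TCKO mice carried Prx1-Cre with Tet1fl/fl Tet2fl/fl Tet3fl/fl, so that all 3 Tet genes were removed in the mesenchymal lineage where the Prx1 enhancer is active, and other cells in the culture would keep them. There was 1 library per genotype, so every test below compares these 2 libraries and not the genotypes, and no spread between animals or cultures is known. The calls do not report expression, and the cell type of the cultures was not checked here.

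CpG is the main site of DNA methylation in mammals because it reads the same on both strands: after replication the old strand still carries its methyl groups, and the maintenance methyltransferase copies them onto the new strand, so that the 2 cytosines of a dyad are usually either both methylated or both unmethylated. A dyad methylated on 1 strand is called hemimethylated. TET1, TET2 and TET3 oxidize 5-methylcytosine to 5-hydroxymethylcytosine and further products, which leads to loss of the mark either through base repair or through failure of copying at replication. Bisulfite conversion leaves methylated and hydroxymethylated cytosine as C and turns unmethylated cytosine into T, so the 2 marks are not told apart here. Each read comes from 1 strand of 1 molecule. A true difference between the strand levels of a dyad therefore arises where molecules lack the mark more often on 1 strand than on the other. Molecules that lack it on either strand at random lower both levels alike. A measured difference can also come from counting error or from reads of another copy of the sequence.

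In all, CG cytosines had 261127589 calls in WT and 223645082 in TCKO. In the member dyads the median was 16 calls per strand in WT and 15 in TCKO. With 10 calls on each strand and a true level of 50% on both, counting alone gives a gap of 50 percentage points or more in 4.14% of dyads, and with 20 calls in 0.222%. Over the 3 targeted genes, the 2 kb stretch with the fewest TCKO calls for its WT calls had 461 calls in WT and 39 in TCKO in Tet1, 122 and 13 in Tet2, and 164 and 39 in Tet3, where the whole genes kept 0.791, 0.784 and 0.819 times the WT calls. Few calls remained in TCKO in a stretch of each gene, and these stretches were chosen for that.

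The dyads with such depth were CpG-poor. They had a mean of 1.02 other CpGs in the 100 bases on either side, where the dyads of all autosomes had 3.66, and 42.6% had none. The median GC content of the 202 bases around them was 31.7%. Repeat sequence that the reference marks in lower case (soft-masked) held 16.4% of them and 24.6% of all autosomal dyads. By the GENCODE M21 annotation, 152386 lay outside protein-coding genes, 85713 in introns, 12017 in exons and 2426 within 1 kb of the start of a protein-coding gene. Chromosome 11 had the lowest share of its dyads among the members (0.716%) and chromosome 16 the highest (1.80%). Few of the members are therefore at promoters, and their values stand for CpG-poor DNA.

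The plus and the minus strand had nearly the same methylation level in each library. The mean level over dyads was 71.8% on the plus strand and 71.8% on the minus strand in WT, and 76.5% on each strand in TCKO. Pooled over calls, the members were at 71.7% in WT and 76.1% in TCKO, 4.40 points higher, and the other covered dyads of the autosomes at 71.1% and 77.5%, 6.43 points higher. For the members this difference was 4.39 points on the plus strand and 4.42 on the minus strand. Both strands were higher in TCKO on all 19 autosomes, with mean differences over dyads from 2.48 points on chromosome 7 to 5.43 on chromosome 16.

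Within a dyad, the absolute strand gap had a median of 9.52 points in WT and 9.09 in TCKO, and it was under 20 points in 81.9% and 82.9% of dyads. The root mean square gap was 15.3 points in WT, of which 14.6 is the size that the number of calls gives by itself, leaving 4.75 points once the counting variance was taken off. In TCKO the same 3 values were 14.96, 14.2 and 4.75. Outside soft-masked repeats 3.17 points were left in WT and 3.23 in TCKO, and within them 9.28 and 9.19. Across dyads, plus and minus levels correlated with r = 0.740 in WT and 0.727 in TCKO (n = 252542 dyads, which share libraries and, when close together, reads). Most of the gap between strands was thus of the size of counting error, and what was left was larger in repeats in both libraries.

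**Figure D1:**
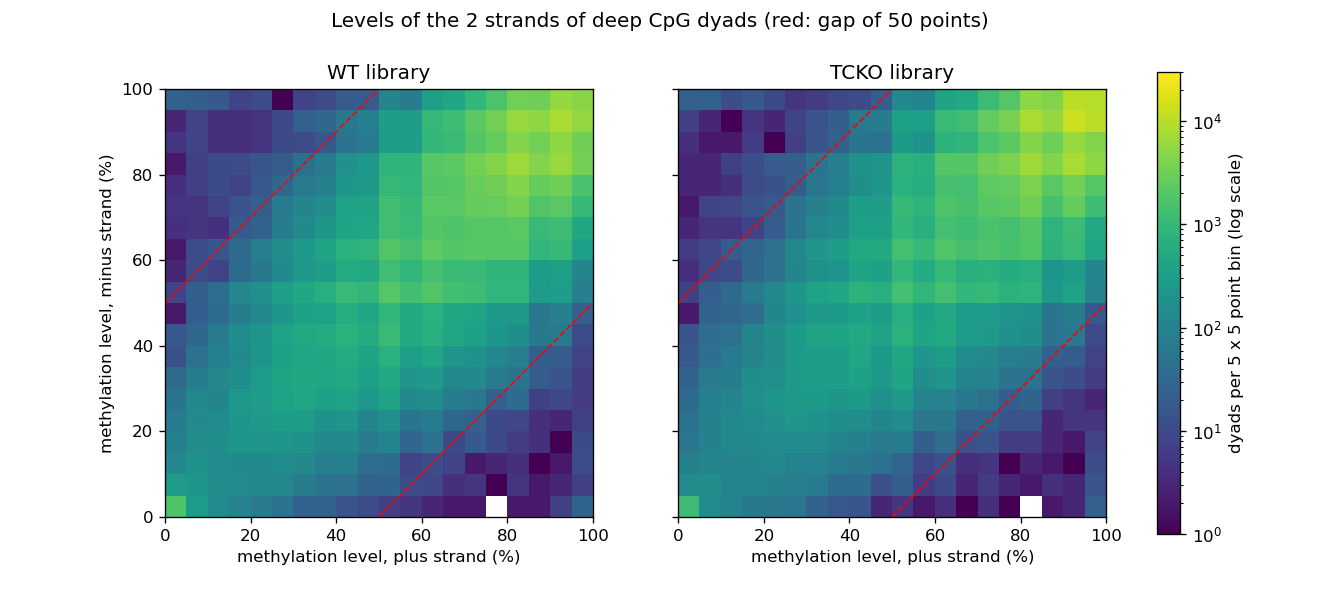
Level of the plus strand (x axis, %) against the minus strand (y axis, %) for the 252542 dyads of the WT library (left) and the TCKO library (right), with the number of dyads per bin as colour on a log scale and red dashed lines at a gap of 50 points. Most dyads lie along the diagonal at high levels, and the corners with 1 strand methylated hold few.

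A gap of 50 points or more was found in 1093 dyads of WT (0.433%, 95% Wilson interval 0.408% to 0.459%) and 1060 of TCKO (0.420%, 0.395% to 0.446%). The intervals on these shares treat the 252542 dyads as independent draws, though dyads close together share reads. They do not show how many of the gaps came from counting error within a dyad. Intervals on the level of a single dyad, given further below, treat its calls as independent. Reads without molecular identifiers are not independent molecules, and no interval covers spread between cultures. Among the dyads with a gap of 50 points or more, the plus strand was higher in 494 in WT and 480 in TCKO. The minus strand was higher in 599 and 580. Just inside the limit, 258 dyads of WT and 289 of TCKO had gaps of 50 to 52 points, and just outside it 207 and 167 had 48 to 50 points. In 29 dyads of each library 1 strand read 0% and the other 100%. By Fisher's exact test of plus against minus calls, with Benjamini-Hochberg adjustment over all 252542 dyads, 283 dyads passed an adjusted p of 0.05 in WT (0.112% of those tested) and 257 in TCKO (0.102%). Soft-masked repeats held 94.3% of the calls in WT and 96.5% in TCKO.

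The gaps that were seen again in the other library lay in repeats. Of the dyads with a gap of 50 points or more, 330 had one in both libraries, 30.2% of the WT list and 31.1% of the TCKO list. These shares depended on depth and on the limit, with 71.8% and 70.5% with at least 15 calls per strand, 83.6% and 86.8% with at least 20, 12.9% and 13.4% at a limit of 40 points, and 54.9% and 60% at 60 points. In all 330 the same strand was the higher one in both libraries. The exact test called 200 dyads in both libraries, all with the same strand higher. In soft-masked repeats 315 of 564 WT gaps (55.9%) were found again, and outside them 15 of 529 (2.84%). Over all dyads the TCKO library had such a gap in 1.29% within repeats and 0.249% outside. The TCKO gap, taken in the direction of the WT gap, had a median of 57.4 points among the WT gaps in repeats and of 2.78 points among those outside. Outside repeats most large WT gaps were thus not found again, though more often than the share over all dyads there. None of the 330 lay in an exon or within 1 kb of a gene start, where 4.76% and 0.961% of all members lay. In introns lay 86 (26.1%, and 33.9% of all members), and outside protein-coding genes 244 (73.9%, and 60.3% of all members). Of the 330, 95.5% were soft-masked, and the shares among soft-masked members alone are not given here. The 330 formed 318 clusters at a distance of 1000 bp, so nearly all stood alone. Members are sparse, and this count was not compared with that of other member sets of the same size.

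In the 330 dyads 1 strand was low and the other high. Their choice by a gap in both libraries largely fixes that the levels were alike in WT and TCKO, and the values are a description. The lower strand had a median level of 10.3% in WT and 11.4% in TCKO, and the higher strand 94.4% and 94.9%. Their mean change from WT to TCKO was -0.0744 points on the lower strand and -0.0654 on the higher strand. With the calls of both strands pooled in each dyad, the mean change was -3.52 points (SE 0.583 over dyads). Pooling weights each strand by its calls, and the strand with the larger median differed between the libraries, so this value does not show a fall on either strand. The median was 18 calls on the lower and 21 on the higher strand in WT, and 20 and 18 in TCKO, and the lower strand was the deeper one in 148 of the 330. The lower strand was the plus strand in 203 and the minus strand in 127.

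The 6 dyads with the largest gaps of the same direction in both libraries are shown with 14 bases on either side, since their sequences show which kind of DNA carries them. They are the plus strand of the NCBI reference GRCm38.p6, written 5′ to 3′ with the CpG in capitals.
chr10:58964517-58964546, Sh3rf3 intron: tcaaggcttttcccCGctttctcctctata
chr15:49374358-49374387, outside genes: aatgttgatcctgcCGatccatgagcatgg
chr16:58250309-58250338, outside genes: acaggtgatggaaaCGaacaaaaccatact
chr3:112836155-112836184, outside genes: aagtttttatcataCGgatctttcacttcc
chr13:112566573-112566602, Il31ra intron: gaagaagaagaaggCGgcggaggaggggga
chr3:159671137-159671166, outside genes: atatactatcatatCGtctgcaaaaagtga

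All 6 are soft-masked. In the intron of Sh3rf3, which encodes a ubiquitin ligase, the plus strand read 0 of 27 calls methylated in WT and 0 of 26 in TCKO, while the minus strand read 20 of 20 and 19 of 19. In the intron of Il31ra, an interleukin receptor gene, the pattern was turned: the plus strand read 14 of 14 in WT and 17 of 17 in TCKO, and the minus strand 0 of 20 and 0 of 24. The other 4 were as complete, with the plus strand at 0% on chromosomes 15 and 3 and the minus strand at 0% on chromosome 16. A strand at 0 in any of the dyads named here had 10 to 30 calls, which allows a level of up to 10% to 30%. The window of the Sh3rf3 dyad occurs 9 more times in GRCm38 as it stands, 2 times with TG in place of CG, and 12727 times with CA. The window on chromosome 16, whose minus strand is the low one, occurs 9987 times with TG and 3 times with CA. The Il31ra window, which is rich in purines, has no other exact copy of any of the 3 kinds.

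This count of copies was extended to all members. A 30-base window was searched on both strands of the autosomes and sex chromosomes, as it stands and with the CpG changed to TG or CA. Among the 203 dyads with a low plus strand, 74.4% had a CA copy and 49.8% a TG copy. Among the 127 with a low minus strand, 84.3% had a TG copy and 56.7% a CA copy. Of the 27075 soft-masked dyads with gaps under 20 points in both libraries, 20.8% had a CA copy and 20.98% a TG copy. Outside soft-masked repeats the shares were 0.599% and 0.622%. Near-copies with other differences were not searched. Over all dyads whose window had a copy of any kind elsewhere, 2.70% had a gap of 50 points or more in WT and 2.52% in TCKO. Over the 234803 without one, the shares were 0.261% and 0.261%, and 48 of them kept the gap in both libraries. The aligner kept reads it placed uniquely and allowed 2 mismatches, and the part of reads from other copies in these gaps was not tested.

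**Figure D2:**
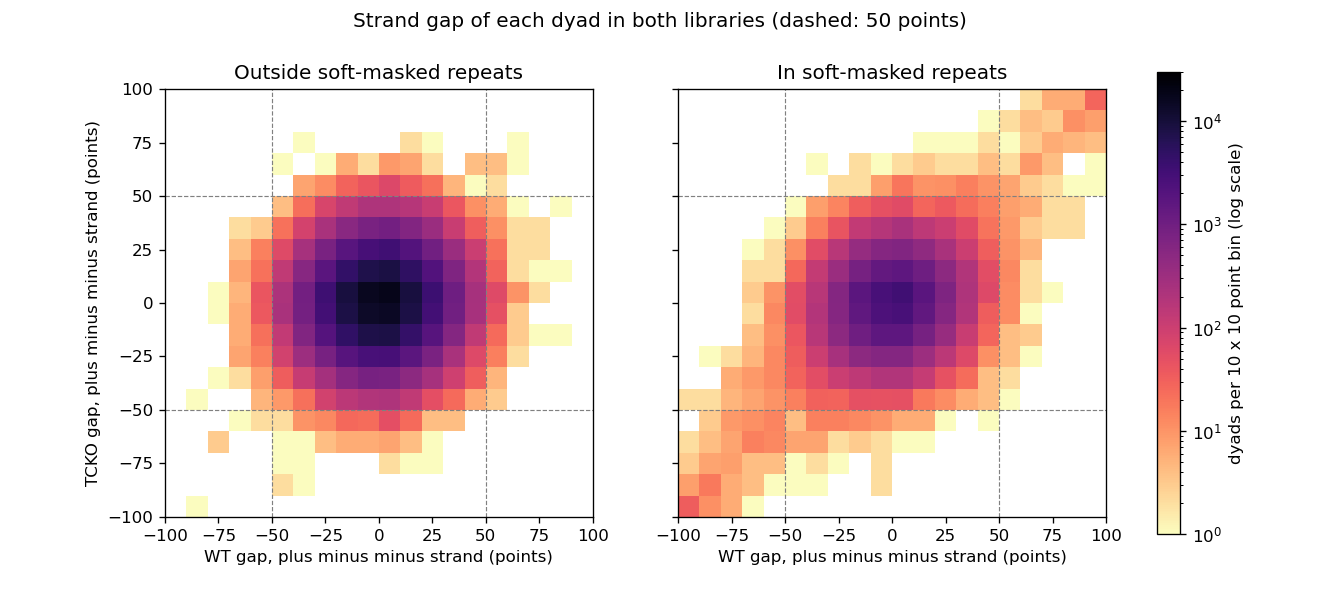
Strand gap, plus minus minus, in WT (x axis, points) against TCKO (y axis, points) for the 211042 dyads outside soft-masked repeats (left) and the 41500 within them (right), with dyads per bin as colour on a log scale and dashed lines at 50 points. Outside repeats the cloud is round, with 15 dyads past 50 points in both libraries, and in repeats 2 arms reach the corners where the same strand is high in both, with 315 dyads.

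Tet1 itself had such a dyad. In an intron of Tet1, 55168 bases from the gene's start (chromosome 10, 62853828 to 62853829), the plus strand read 0 of 21 calls in WT and 0 of 14 in TCKO, and the minus strand 37 of 41 (90.2%) and 32 of 35 (91.4%). It was called by the exact test in both libraries. It is the only dyad of the gene lists described below that was called for a strand gap in either library.

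More dyads had both strands methylated in TCKO than in WT. Both strands were at 80% or more in 31.3% of dyads in WT (79118) and 43.2% in TCKO (108989). Both were at 20% or less in 1.87% (4732) and 1.26% (3175), an order that turned with at least 20 calls per strand, where the shares were 1.56% in WT and 1.77% in TCKO. A dyad with 1 strand at 20% or less and the other at 80% or more was rare in both, with 266 in WT (0.105%) and 244 in TCKO (0.0966%), and here too the order turned with depth, to 0.195% and 0.221% with at least 15 calls. Of the 79118 dyads high on both strands in WT, 74.8% were so in TCKO and 6 were low on both strands. Of the 4732 low on both strands in WT, 42.5% were low on both in TCKO, 30.9% had both strands in between, 22.4% had 1 strand in between, 4.21% were high on both, and none had 1 low and 1 high strand. Of the 266 dyads with 1 low and 1 high strand in WT, 161 (60.5%) had that state in TCKO.

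Over all members, the difference between the libraries was larger in the lower classes of the WT level. These means have no test, since there was 1 library per genotype. In 5 classes of the WT level, strands pooled and upper bounds included, the mean over dyads was higher in TCKO by 23.0 points in the class up to 20% (9.11% to 32.1%, n = 6163), by 14.8 points from 20% to 40% (n = 14480), by 9.92 points from 40% to 60% (n = 37817) and by 5.57 points from 60% to 80% (n = 89496). From 80% to 100% the difference was -0.464 points (88.4% to 87.9%, n = 104586). It was alike on both strands, 23.0 and 23.0 points in the lowest class. These classes use the same WT calls as the change, so counting error moves the lowest class up and the highest down. Next, the class was taken from the WT level of 1 strand and the change from the other strand, which has its own calls. The differences were then 17.3 points (SE 0.224 over dyads), 9.47, 6.43, 4.37 and 2.59 points (SE 0.0286). The order held and the sign in the highest class was turned. On the other strand the mean WT level was 19.5% in the lowest of these classes and 84.2% in the highest. Such classes thus also hold dyads of other levels. The 2.59 points are not the change of the dyads with pooled WT levels from 80% to 100%. The order did not hold in the deepest dyads: with at least 20 calls per strand the differences were 10.05, 1.75, 3.53, 3.12 and -0.598 points from the lowest to the highest class, and with at least 15 calls the lowest class was at 14.4 points.

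The lowest class did not move as one. Of the 4732 dyads with both WT strands at 20% or less, 2253 (47.6%) were below 20% in TCKO, strands pooled, 847 were from 20% to 40%, 691 from 40% to 60%, 606 from 60% to 80%, and 335 (7.08%) at 80% or more. Their plus and minus levels in TCKO correlated with r = 0.879 (n = 4732 dyads of 1 library). Among those with a plus strand higher by 50 points or more, 74.0% had a minus strand higher by as much, and among the others 7.31% had. A gain of this size was seen on both strands in 790 (16.7%) and on 1 strand in 545 (11.5%). In promoters the low dyads had the smallest difference, with 4.30% in WT and 14.4% in TCKO (n = 317), with 4.73% of them up by 50 points or more on both strands. In introns the means were 6.64% and 35.7% (n = 1363), and 21.9% were higher by 50 points or more on both strands. Outside genes the values were 6.97% and 29.5% (n = 2826), and in exons 6.31% and 26.5% (n = 226). The dyads higher by 50 points or more on both strands had a mean of 1.24 other CpGs within 100 bases, and the 2013 that stayed at 20% or less on both strands had 1.94.

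**Figure D3:**
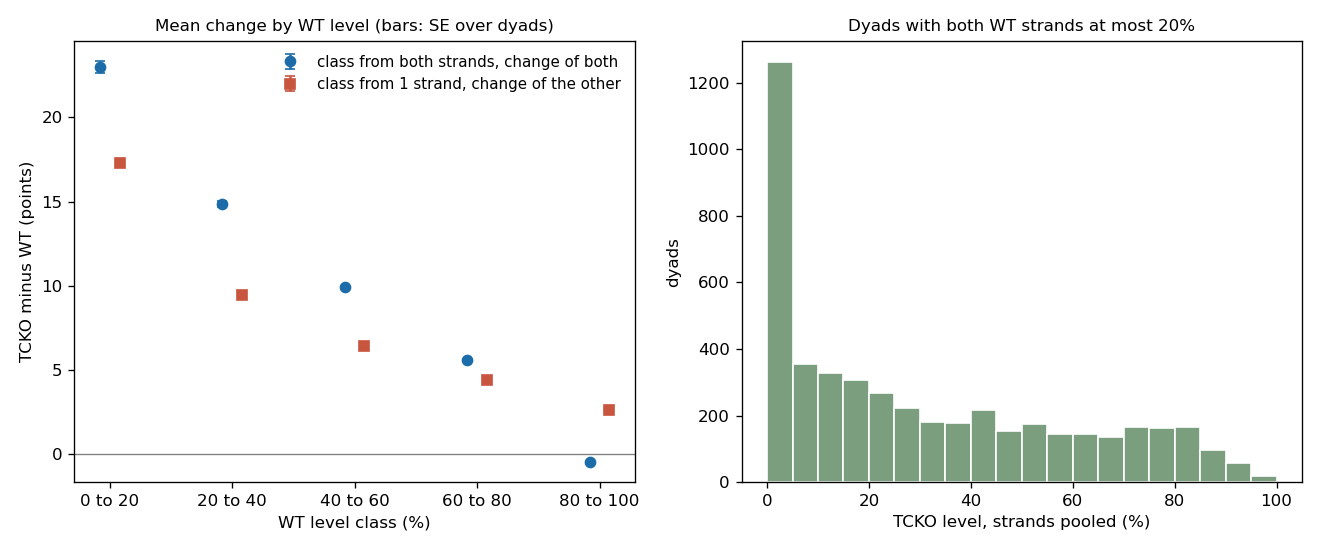
Left, mean TCKO minus WT level (y axis, points; bars, SE over dyads) by WT level class (x axis, %), with the class from both strands (circles, 23.0 to -0.464 points) or from 1 strand with the change on the other (squares, 17.3 to 2.59 points). Right, number of dyads by TCKO level (x axis, %, strands pooled) among the 4732 with both WT strands at 20% or less, with the highest bar at the lowest level and a tail up to 100%.

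The change was smaller in dyads that were read more deeply. Where the strand with the fewest calls had 10 or 11, the mean difference was 5.19 points (SE 0.0392, n = 133584). With 12 to 14 calls it was 4.54 points, with 15 to 19 calls 3.44 points, and with 20 or more 1.91 points (SE 0.136, n = 5704). The order was the same outside soft-masked repeats, from 5.69 to 2.23 points. The deepest set was also poorer in GC (median 26.7% against 32.7% in the shallowest) and held more soft-masked dyads (26.2% against 16.2%). The part of base composition in this trend was not tested. Over all depths, dyads outside soft-masked repeats were higher in TCKO by 5.13 points and those within by 2.38 points. Intron dyads were higher by 5.49 points, exon dyads by 4.64, dyads outside genes by 4.24 and promoter dyads by 3.94 (SE 0.0461, 0.113, 0.0352 and 0.294 over dyads).

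Dyad by dyad, gains far outnumbered losses. Fisher's exact test on the calls of both strands pooled, adjusted over all 252542 dyads, called 5427 dyads higher in TCKO (2.15%) and 289 lower (0.114%). The called gains went from a median of 29.2% in WT to 83.9% in TCKO, and the called losses from 65.9% to 8.33%. Both strands were higher in 5419 of the 5427 gains and lower in 288 of the 289 losses. The choice of large changes in pooled calls largely brings this about. With each strand tested alone, 995 gains were called on the plus strand, with a mean change of 70.4 points there. On the minus strand, which the choice did not use, these dyads were higher by a mean of 53.3 points (SE 0.698), and 984 of 995 were higher in TCKO. The 53 losses called on the plus strand had a mean minus-strand change of -54.6 points (SE 3.91), and 50 of 53 were lower. A pass on both strands separately was reached by 227 gains (0.0899% of dyads tested) and 21 losses (0.00832%). The direction of a change called on 1 strand was thus seen on the other strand in nearly all of these dyads. Of the 995 gains called on the plus strand, 227 were also called on the minus strand.

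The changes of neighbouring dyads were also correlated. The correlation of the change on 1 strand with the change on the opposite strand was r = 0.294 within a dyad (n = 252542), 0.315 with the next member dyad 2 to 10 bases away (10616 pairs), 0.253 at 11 to 50 bases, 0.184 at 51 to 100 bases, 0.140 at 101 to 250 bases and 0.0355 at 1001 to 5000 bases (60841 pairs). Opposite strands share no reads, while on the same strand the value at 2 to 10 bases was 0.525. These are descriptions across sites of the same 2 libraries. Within the class up to 20% in WT, the changes on the 2 strands of a dyad correlated with r = 0.802 (n = 6163), and in the class from 80% to 100% with r = 0.0119 (n = 104586). The standard deviation of the change was 26.7 points in the lowest class and 8.15 in the highest. Since the classes also use the WT calls of both strands, the 2 correlations do not compare how closely the strands move.

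The 4 dyads with the largest gain and the 4 with the largest loss, ranked by the smaller of the 2 strand changes, are shown in the same form because they had the largest changes on both strands. The first 4 are the gains.
chr1:161849692-161849721, Suco intron: taggtctcccctttCGctcgctatgttggc
chr14:85872065-85872094, outside genes: tgatatgcattaacCGaagttgcttttaac
chr12:69291338-69291367, -5329 bases from the start of Klhdc2: aatacatcacacacCGaaataaaccagacc
chr14:86056508-86056537, outside genes: ttttaactgacttaCGtaatagaattttga
chr8:31568214-31568243, outside genes: catttgcctttctgCGaaggacttaagtgt
chr11:8201090-8201119, outside genes: tatattttggcttcCGtgtgtgtgtgttta
chr8:31952837-31952866, Nrg1 intron: ctgacgggaaactaCGcctgatctgtcata
chr8:30112573-30112602, outside genes: catacagatctttcCGttgttccagggtga

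In the intron of Suco, a gene named for its part in ossification, 0 of 14 plus and 0 of 11 minus calls were methylated in WT, and 13 of 13 and 11 of 11 in TCKO. Upstream of Klhdc2, a substrate receptor of a ubiquitin ligase, the calls were 0 of 15 and 0 of 20 in WT and 13 of 13 and 18 of 19 in TCKO. On chromosome 14 they were 0 of 30 and 0 of 11 against 36 of 38 and 14 of 14 at 85872079, and 0 of 13 and 0 of 19 against 10 of 10 and 17 of 18 at 86056522. All 4 gains were unmethylated on every call in WT and nearly fully methylated in TCKO. The largest loss, on chromosome 8 at 31568228, went from 11 of 11 plus and 13 of 13 minus calls to 0 of 15 and 0 of 15. In the intron of Nrg1, which encodes a ligand of ERBB receptors, the loss was from 11 of 13 and 11 of 13 to 0 of 16 and 0 of 11. None of the 8 windows had another exact copy with CG, TG or CA.

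Changes between no methylated call and a high level were not spread evenly. In 48 dyads no call was methylated in WT and both strands were at 80% or more in TCKO, and 6 dyads went the other way. Of the 48, 29 lay in 5 of the 501 windows of 5 Mb that held members: 11 on chromosome 14 from 85 to 90 Mb and 4 from 80 to 85 Mb, 5 on chromosome 12 from 65 to 70 Mb, and 5 and 4 on chromosome 1 from 160 to 165 Mb and from 155 to 160 Mb. Of the 6 losses, 4 lay on chromosome 8 from 30 to 35 Mb. All 4 named gains and 3 of the 4 named losses are in these windows. A dyad that is not a CpG in the DNA of a culture would also read 0% on both strands, and the DNA sequence of the cultures was not examined. Without these 6 windows, which hold 1.79% of the members, the difference by class ran from 22.3 points in the lowest to -0.466 points in the highest, close to the values with them. Tested anew without them, 167 gains and 14 losses passed on both strands separately.

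The bases beside a CpG differ between its strands unless the site is a palindrome, so the members also show whether neighbours go with a strand difference. The strand reading ACGG was higher than the opposite strand, which reads CCGT, by 1.59 points in WT (SE 0.0886 over 31046 dyads) and 1.79 points in TCKO (SE 0.0843). The strand reading CCGC was lower than its GCGG partner by 1.61 points in WT (82.6% against 81.0%, 10308 dyads), and in TCKO the levels were 84.3% and 85.8%. The remaining 4 pairs differed by at most 0.738 points in either library, and ACGC against GCGT by -0.0168 points in WT and 0.214 in TCKO. With 2 bases on each side, 101 of 120 pairs had the same sign in both libraries, and the pair GACGGA against TCCGTC differed by 3.35 points in WT, the most of any pair there, and by 3.01 in TCKO (1539 dyads). Mean differences by context were thus of a few points at most. As means over many dyads, they are not on the same measure as the gaps of single dyads in repeats.

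The bases also went with the level and with the change of the dyad as a whole. ACGT dyads had the lowest WT level, 66.0%, and were 6.40 points higher in TCKO (n = 40915). GCGC dyads had the highest, 84.6%, and were 2.38 points higher (n = 4619). TCGA dyads, at 67.4% in WT, were 3.42 points higher (n = 25046), less than ACGT dyads of nearly the same level. Within the WT class from 40% to 60% the differences were 10.4 points for ACGT, 6.42 for TCGA, 14.3 for GCGC and 17.4 for CCGG (SE 0.169, 0.212, 1.67 and 0.732 over dyads). The mean change within this class thus differed with the neighbouring bases. The class uses the same WT calls as the change, so counting error enters these values. It weighs most on contexts with few dyads in the class, as for GCGC, with 159 there and 3621 from 80% to 100%. No class from the opposite strand was made by context, so a difference at the same true WT level is not shown. These are means over sites of 1 library pair, and base composition, depth and position were not separated.

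Member calls were next summed over genes with 10 kb on either side, a window chosen after the promoters were seen to hold few members. Of 3063 protein-coding genes with at least 10 member dyads, 2401 (78.4%) were higher in TCKO on both strands and 160 (5.22%) lower on both. A gene was called when Fisher's exact test passed an adjusted p of 0.05 over all genes on each strand with the same sign. By this rule 639 genes gained methylation (20.9% of those tested) and 1 lost it (0.0326%). The changes on the 2 strands correlated with r = 0.542 over the 3063 windows, some of which overlap. Calls of neighbouring dyads share reads, so these tests count more independent calls than there are.

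The 20 called genes with the largest gain, ranked by the smaller of the 2 strand gains, were Met, Wipf1, Mbnl2, Scamp1, Slc26a7, Reps1, Cd47, Irs1, Kank1, Cald1, Lrrc1, Maf, Lhfp, Nptn, Slc38a6, Fbxo11, Prickle2, Sipa1l1, Lrrc17 and Col28a1. Met, the receptor of hepatocyte growth factor, went from 54.1% to 85.8% on the plus strand and from 48.6% to 81.1% on the minus strand over 13 dyads, 5 of which were called gains by themselves. Wipf1, which encodes a partner of the actin regulator WASP, went from 51.9% to 82.8% and from 50% to 80.5% over 13 dyads. Mbnl2, a splicing regulator, gained 27.1 and 25.3 points over 19 dyads. These 3 genes came first by the smaller strand gain. Such a ranking favours genes whose strands moved by similar amounts, so their evenness follows in part from the choice.

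Among the others, Cd47, a surface protein that restrains uptake by phagocytes, gained 21.8 points on the plus and 23.3 on the minus strand over 17 dyads. Irs1, which carries the insulin and IGF1 signal and is known for a role in bone formation, gained 27.4 and 21.1 points over 13 dyads. Prickle2, a planar cell polarity protein, gained 18.2 and 19.04 points over 20 dyads. Cald1, caldesmon, an actin-binding protein, gained 20.3 and 24.6 points over 19 dyads, and Kank1, a regulator of the actin cytoskeleton, gained 22.9 and 20.98 over 14. Maf, a transcription factor, had the least even pair, 35.7 points on the plus and 19.9 on the minus strand over 11 dyads. Col28a1, a collagen chain, gained 16.9 and 23.3 points over 18 dyads. The 1 gene called for loss was Zfp986, a zinc finger gene of a repeated family on chromosome 4, which fell by 8.60 points on the plus strand and fell by 8.50 on the minus strand over 23 dyads, none of them called alone. Members of such a family can share reads, so this value is uncertain.

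**Figure D4:**
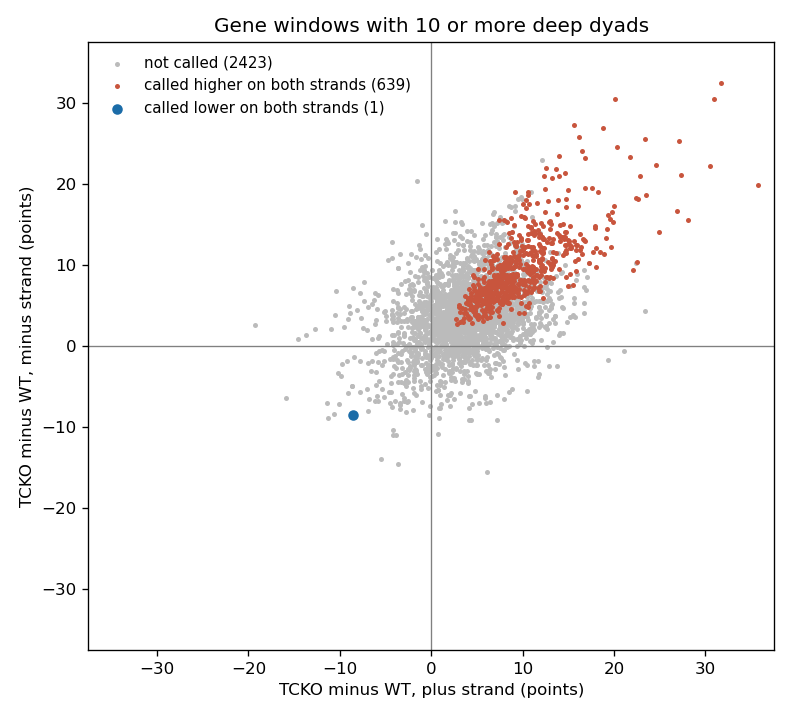
TCKO minus WT level over member calls on the plus strand (x axis, points) and on the minus strand (y axis, points), 1 point per gene window, for 3063 genes with at least 10 member dyads. The 639 windows called higher on both strands (red) lie in the upper right, and the 1 called lower on both (blue) in the lower left.

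Among osteoblast genes, called gains lay within Runx2 and Col1a2 and past the end of Mepe, and no dyad was called lower. The list had 30 genes, of which 20 held members within 10 kb, with 183 dyads in all. Their mean level was 75.9% in WT and 83.3% in TCKO, with a median change of 3.97 points, and the median over all members was 3.43. The plus strands were higher by a mean of 8.27 points and the minus strands by 6.97. The tests called 9 of the 183 dyads higher (4.92%), where 2.15% of all members were called higher. The list was drawn up with results on some of these genes known. Sp7, Col1a1, Alpl, Bglap and Sost are on the list and held no member. The 9 called dyads are shown with their reference sequence, plus strand, CpG in capitals, since they are the sites where the libraries differed.
Runx2 +4779, chr17:44810004-44810033: gtgaatacttttgtCGttttgaaatgacaa
Runx2 +6360, chr17:44808423-44808452: agtgcatatgcataCGtgtgtaccatgtat
Runx2 +8386, chr17:44806397-44806426: aaaattttgtgctaCGttgtttgtgggtat
Runx2 +20596, chr17:44794187-44794216: gagaataccagcaaCGtgaactgattgtga
Runx2 +40384, chr17:44774399-44774428: ctcaacagatttaaCGtctcaacctataga
Col1a2 +4236, chr6:4509036-4509065: agaaaatactttagCGagattttacctata
Col1a2 +8849, chr6:4513649-4513678: ttgaagcattctttCGacattgtttgtctt
Col1a2 +22553, chr6:4527353-4527382: gccaagaatgaattCGtatggtttatccct
Mepe +18566, chr5:104343881-104343910: aataaaatggaagcCGatgcctctccttat

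Runx2, the transcription factor that directs osteoblast differentiation, had 40 members, whose mean level went from 76.9% to 86.4% on the plus strand and from 75.0% to 88.6% on the minus strand. Both strands were higher in TCKO in 21 of the 40. The 5 called dyads lay in introns, from 4779 to 40384 bases past its annotated start. At +4779, WT read 5 of 14 plus and 6 of 15 minus calls methylated (37.9% pooled, Wilson interval 22.7% to 56.0%), and TCKO 21 of 23 and 11 of 13 (88.9%, 74.7% to 95.6%), a rise of 50.96 points (exact test, adjusted p = 0.00218). At +6360 the calls were 13 of 23 and 12 of 22 in WT and 15 of 15 and 16 of 17 in TCKO (adjusted p = 0.00456, exact test). In TCKO the 5 dyads were between 88.9% and 97.7% methylated, and in WT between 37.9% and 64.4%, so their levels did not overlap, which the choice of called dyads brings about. Of the dyads not called, the 2 within 1 kb upstream of the start were at 30% to 66.7% in WT and 35.7% to 76.9% in TCKO over their strands.

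Col1a2, which encodes a chain of type I collagen, the main protein of bone matrix, had 5 members and 3 called gains, all 5 in sequence that some annotated transcript of the gene counts as exon. At +4236, WT read 2 of 21 plus and 1 of 10 minus calls methylated (9.68%, Wilson interval 3.35% to 24.9%) and TCKO 14 of 16 and 8 of 11 (81.5%, 63.3% to 91.8%), which is 71.8 points higher (exact test, adjusted p = 1.13e-05). At +22553 WT read 1 of 18 on the plus strand (5.56%) and 10 of 22 on the minus strand (45.5%), and TCKO 14 of 16 (87.5%) and 9 of 15 (60%). There the libraries lay much farther apart on the plus strand than on the minus strand. Mepe, a matrix phosphoglycoprotein gene, had 7 members, and the 1 called, at +18566 and so outside the gene, which ends at 104338611, went from 13 of 28 and 1 of 10 to 12 of 14 and 13 of 17. It rose by 43.8 points over both strands (exact test, adjusted p = 0.0181).

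The other osteoblast genes had no called dyad. Spp1, osteopontin, had 8 members at 53.1% on the plus and 60.1% on the minus strand in WT and 72.3% and 66.9% in TCKO. Of these, 4 lay at positions -1699 to -1151 from the start, with WT levels of 18.8% to 62.5% and TCKO levels of 30% to 88.2% over their strands, and no difference was called at this depth. Lrp6, a WNT co-receptor, had 27 members at 84.6% and 85.8% in WT and 92.7% and 93.3% in TCKO. Fgf7, a growth factor, had 17 members with 77.6% and 82.6% in WT and 91.0% and 86.0% in TCKO. Tnfsf11, the osteoclast-inducing ligand RANKL, had 11 members at 86.6% and 91.7% in WT and 87.7% and 87.3% in TCKO. Dlx5, a homeobox factor, had 6 members and lower means in TCKO, 70.4% and 70.4% after 75.4% and 79.8%. The genes of the list thus did not all have higher values in TCKO.

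**Figure D5:**
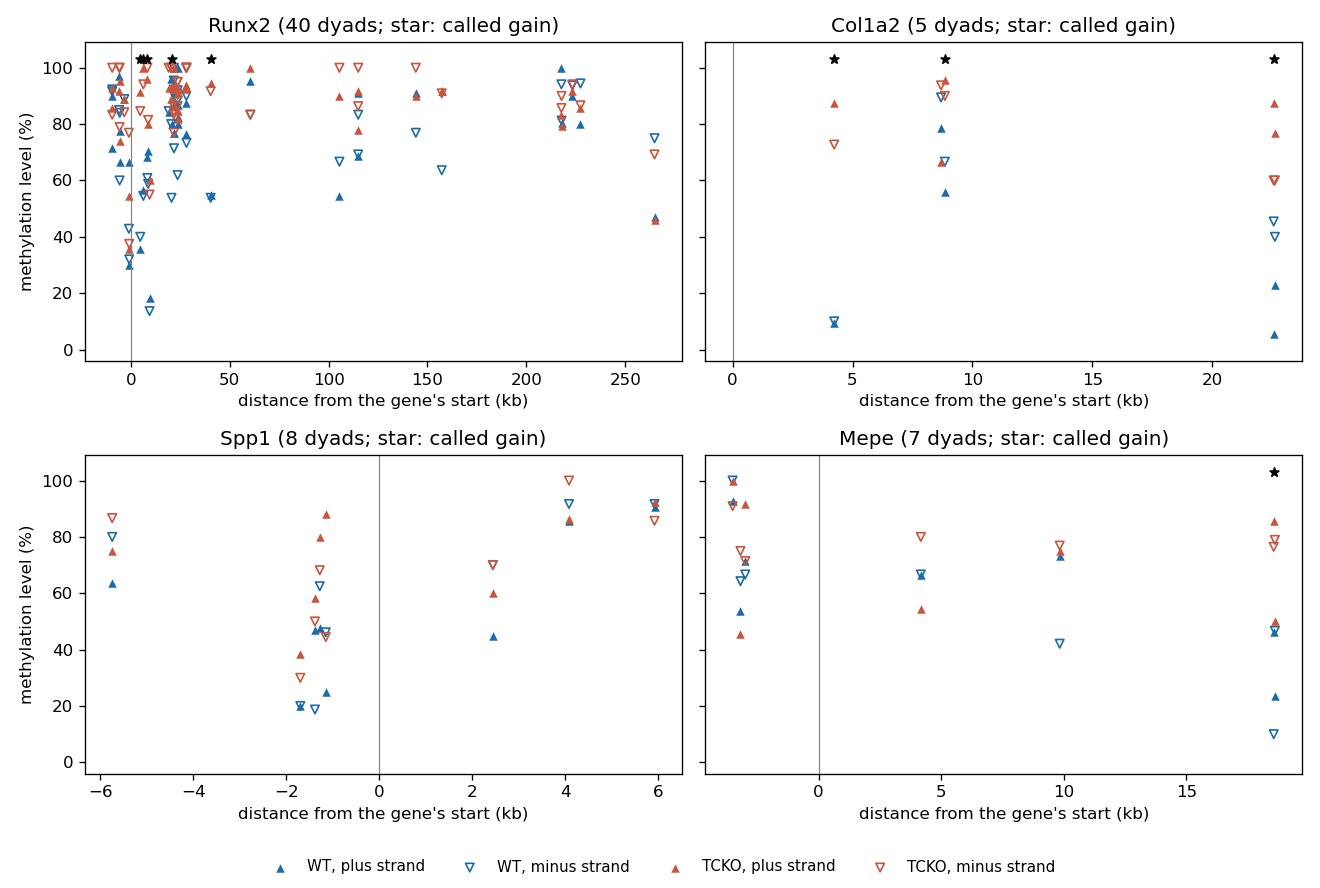
Methylation level (y axis, %) of every member dyad of Runx2 (40), Col1a2 (5), Spp1 (8) and Mepe (7) by distance from the gene's start (x axis, kb), with WT in blue and TCKO in red, the plus strand as upward and the minus strand as open downward triangles, and a star over each called gain. The stars lie from 4779 to 40384 bases in Runx2, at 3 places in Col1a2 and at 1 in Mepe.

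Lists of other cell types that such a culture could hold, and of other gene groups, are read against the shares over all members, 2.15% called higher and 0.114% called lower. Of 195 dyads near chondrocyte genes, 5 were called higher (2.56%), a share near that of all members, and 4 lower, all 4 of them in Sox5 and Sox6. Col10a1, the collagen of hypertrophic cartilage, had a called gain at position -366 from its start, from 2 of 17 and 3 of 17 calls to 8 of 15 and 11 of 14. Sox6, a transcription factor of cartilage, had 3 called gains and 2 called losses among 49 dyads, and Sox5, its partner, 1 gain and 2 losses among 73. Of 85 dyads near myeloid and osteoclast genes 3 were called higher (3.53%) and none lower. Of these, 2 lay upstream of Csf1r, the receptor of the macrophage growth factor CSF1, whose 3 dyads went from a pooled 44.1% to 83.9%, and 1 lay in Calcr, the calcitonin receptor of osteoclasts. The share of such cells in the cultures is not known, and its part in the values was not tested.

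Of 68 dyads near adipocyte genes and 60 near genes of the methylation machinery none was called in either direction, and of 144 near germline genes 2 were called higher (1.39%), in Ddx4 and Asz1. With 2.15% of all members called higher, lists of this size would hold few calls in any case, and these counts say nothing particular about them. Imprinted genes carry 1 methylated and 1 unmethylated parental copy at their control regions, and of the 112 dyads within 10 kb of 14 such genes, 1 of them within 1 kb of a start, none was called. Their median change was -0.503 points, and 48.2% of them were higher in TCKO, where 62.2% of all members were. Snrpn had 34 of these dyads, at 62.6% and 66.0% in WT and 61.4% and 60.7% in TCKO. Ndn had 10, Peg12 7 and Magel2 3, and all of these genes lie on chromosome 7 between positions 59982495 and 62464510. That chromosome had the smallest mean difference of the autosomes, 2.48 points. The values of the list thus rest in large part on a stretch of that chromosome. Airn, on another chromosome, had 5 of the dyads, at 45.6% and 54.8% in WT and 70.4% and 72.9% in TCKO, with no dyad called. Over all members, a pass at an unadjusted p of 0.05 was reached by 24652 dyads.

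Promoters held too few members for a test of weight. Only 3 genes had at least 10 members within 1 kb of the start, Gm36079, AW822073 and Duxf3, and none was called on both strands. Gm36079 stayed low, at 2.56% and 1.53% in WT and 4.64% and 3.57% in TCKO. With at least 5 members, 41 promoters were tested, and the exact test called 0% for gain and 0% for loss, with 2 passing an unadjusted p of 0.05 on both strands as gains and none as losses. These were Usp18, an interferon-induced protease gene, from 62.3% to 85.5% on the plus and 69.1% to 86.3% on the minus strand, and Copb1, a coat protein gene, from 1.30% to 10.2% and 1.28% to 10.4%, both named after their values were seen.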

How the data were processed

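The authors sequenced bisulfite-treated DNA on the Illumina platform, mapped reads with BSMAP 2.74 to GRCm38 with up to 2 mismatches, and kept uniquely mapped reads. They deposited, per library and CG cytosine, counts of methylated (C) calls and of all (C + T) calls, not normalized. Removal of duplicate reads is not given in the sources used here. Levels were methylated over all calls per strand. Dyads, soft-masking and sequences were taken from the NCBI GRCm38.p6 reference and genes from GENCODE M21. For strands and libraries alike, p-values came from a Fisher exact test, 2-sided, adjusted by Benjamini-Hochberg across the members, with the code checked on simulated data. SE values are over dyads. Named were the 6 dyads with the largest gap seen in both libraries and the 4 with the largest gain and loss, chromosome 18 left out, the called promoters, and genes of the lists. The 20 gene windows with the largest gain and the called losses were added after seeing the data, as was the 10 kb window. Members and lists were chosen with earlier results of these data known. Python 3.11.15, numpy 2.4.6, pandas 2.3.3 and scipy 1.17.1 were used. Alternatives were other depth limits, repeats left out, other gaps and thresholds.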

Additional observations from a re-analysis of the deposited data

How the results depend on the processing

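No paired analysis was possible because each genotype had 1 library, so no library could be left out either. Depth limits single dyads: strands of 10 calls cannot show a difference of a few points. Promoters with at least 20 members, or with 10 within 500 bases, numbered 0, so these alternatives gave no value. The cause of the shifts below was not tested, except that fewer dyads were tested under stricter limits. Of 151 alternative values, 46 stayed close to the reported one and the others moved. The sign changed in 2: the highest WT class with the change on the other strand, and ACGC minus GCGT in WT with at least 15 calls. The change by WT class, from the lowest to the highest class and then over all members, was 14.4, 8.41, 6.72, 4.25, -0.408 and 3.22 points with at least 15 calls per strand, 10.05, 1.75, 3.53, 3.12, -0.598 and 1.91 with at least 20, and 24.8, 16.6, 10.99, 6.11, -0.287 and 5.13 outside repeats. With at most 30 calls it was 24.4, 16.2, 10.6, 5.86, -0.489 and 4.95, and over pooled calls 21.8, 13.7, 9.33, 5.32, -0.435 and 4.40. With the class from 1 strand and the change on the other, it was 17.3, 9.47, 6.43, 4.37 and 2.59, the last of which has the opposite sign. Without the 5 Mb windows of complete switches, left out after seeing the data, the lowest class was at 22.3. The share of dyads with a gap of 50 points was, in WT and TCKO, 0.419% and 0.426% with at least 15 calls, 0.964% and 0.929% with at least 20, 0.404% and 0.390% with at most 30, 0.251% and 0.249% outside repeats, 1.48% and 1.43% with a limit of 40 points and 0.177% and 0.162% with 60. The share of gaps found again was, in WT and TCKO, 71.8% and 70.5% with at least 15 calls, 83.6% and 86.8% with at least 20, 21.4% and 22.1% with at most 30, 2.84% and 2.85% outside repeats, 12.9% and 13.4% with a limit of 40 points and 54.9% and 60% with 60. Strand gaps called numbered, in WT and TCKO, 134 and 124 with at least 15 calls, 61 and 53 with at least 20, 129 and 104 with at most 30 and 3 and 5 outside repeats. Gains and losses called with strands pooled, then gains and losses on both strands, numbered 604, 61, 46 and 10 with at least 15 calls, 58, 10, 9 and 2 with at least 20 and 3203, 158, 79 and 8 at an adjusted p of 0.01. Both strands low made up, in WT and TCKO, 1.54% and 1.36% with at least 15 calls, 1.56% and 1.77% with at least 20, 1.93% and 1.22% with at most 30 and 1.88% and 1.17% outside repeats. Both strands high made up, in WT and TCKO, 30.3% and 39.7% with at least 15 calls, 27.3% and 34.7% with at least 20, 31.8% and 44.1% with at most 30 and 32.1% and 44.9% outside repeats. A low and a high strand made up, in WT and TCKO, 0.195% and 0.221% with at least 15 calls, 0.596% and 0.649% with at least 20, 0.0703% and 0.0630% with at most 30 and 0.0147% and 0.0114% outside repeats. With at least 15 calls, the strand difference was 0.480 points for ACGC minus GCGT in TCKO, 0.165 points for ACGC minus GCGT in WT, 2.11 points for ACGG minus CCGT in WT and 0.640 points for GCGA minus TCGC in TCKO. Outside repeats, the strand difference was 1.57 points for ACGG minus CCGT in TCKO, 1.32 points for ACGG minus CCGT in WT, -1.12 points for CCGC minus GCGG in TCKO and -1.20 points for CCGC minus GCGG in WT.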
